A study of Mus musculus with 5 samples.

Results

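Orphan CpG islands are stretches of dense CpG sites that lie away from any annotated gene start. CpG islands at promoters are as a rule free of methylation in normal cells, whereas islands inside genes or between genes are more often methylated and differ between tissues. Some of them mark starts of transcripts that a given annotation leaves out. Here they are the autosomal positions that the authors' tables place in a CpG island, outside the promoter window and outside exons. The tables list 4688 cytosines whose methylation differed between 2 kinds of common myeloid progenitors, and 254 of them (5.42%) met this description. An annotated intron held 99 of these, called intronic below, and the remaining 155 lay in neither an exon nor an intron of the authors' annotation and are called intergenic. GENCODE M21, a fuller annotation, places 80 of these 155 (51.6%) in a gene body and 42 (27.1%) in an exon, and 36 of the 99 intronic positions (36.4%) in an exon, so the terms refer to the authors' flags. The choice used the annotation columns alone and no methylation value.

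Reduced representation bisulfite sequencing, which reads cytosine methylation next to CCGG restriction sites, was applied to progenitors sorted from the bone marrow of mice on a background labelled mainly C576BL/6. The 3 control pools came from G0 mice, which carry 1 TERTER allele (G0 TERTER/+) and are called normal, and the 2 other pools came from G5 mice with both alleles (G5 TERTER/ER), labelled as having short telomeres and as telomere dysfunctional. The labels give neither the age nor the number of mice per pool. TERTER joins telomerase reverse transcriptase to an oestrogen receptor part, so both kinds of mice carry the engineered allele. Each sample is a pool of mice, with 14000 to 30000 sorted cells, at least 45 ng of DNA and 29 to 38 M reads, of which about 63% aligned. The tables hold methylation and no expression, so the sorted cell type was taken from the labels. The read depth of single values is unknown, and levels are therefore printed without counting intervals. In pooled cells, a change of methylation within a cell type and a change in the mix of cells cannot be told apart.

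The 254 positions covered 248 CpGs. Both strands were listed at 6 CpGs, in the same direction at all 6. Joined where they lay within 1 kb of each other, they formed 166 loci, 69 intronic and 97 intergenic, each with 1 to 7 listed positions. A locus is named by the authors' nearest RefSeq start site, which need not belong to the gene that holds it. The sequences below show the locus with the most listed positions for each placement and direction, as the plus strand of mm10 over 300 bases around the middle of the listed positions, with the listed CpGs in capitals. The Foxf1 and Ccr1 windows are intergenic and were listed as higher and lower in G5, and the Nfix and Hoxb3 windows are the intronic counterparts, higher and lower.

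Foxf1, chr8:121089387-121089686: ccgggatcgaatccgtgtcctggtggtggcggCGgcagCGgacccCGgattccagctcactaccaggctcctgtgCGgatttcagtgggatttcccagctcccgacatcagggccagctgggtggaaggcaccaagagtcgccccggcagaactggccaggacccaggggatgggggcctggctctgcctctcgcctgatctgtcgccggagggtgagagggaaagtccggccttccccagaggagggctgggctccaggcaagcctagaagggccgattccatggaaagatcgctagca

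Ccr1, chr9:123925361-123925660: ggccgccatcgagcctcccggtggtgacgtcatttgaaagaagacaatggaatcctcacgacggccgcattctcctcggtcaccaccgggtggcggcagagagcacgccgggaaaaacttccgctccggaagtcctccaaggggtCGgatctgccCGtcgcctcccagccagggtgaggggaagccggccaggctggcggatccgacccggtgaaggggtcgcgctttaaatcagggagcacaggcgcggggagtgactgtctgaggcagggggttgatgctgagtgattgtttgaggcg

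Nfix, chr8:84784287-84784586: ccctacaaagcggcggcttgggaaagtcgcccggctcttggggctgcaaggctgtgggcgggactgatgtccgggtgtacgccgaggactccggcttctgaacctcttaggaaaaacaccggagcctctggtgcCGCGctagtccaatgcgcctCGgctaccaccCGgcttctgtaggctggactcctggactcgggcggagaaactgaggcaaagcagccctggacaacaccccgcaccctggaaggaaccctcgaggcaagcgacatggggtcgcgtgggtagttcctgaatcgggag

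Hoxb3, chr11:96341819-96342118: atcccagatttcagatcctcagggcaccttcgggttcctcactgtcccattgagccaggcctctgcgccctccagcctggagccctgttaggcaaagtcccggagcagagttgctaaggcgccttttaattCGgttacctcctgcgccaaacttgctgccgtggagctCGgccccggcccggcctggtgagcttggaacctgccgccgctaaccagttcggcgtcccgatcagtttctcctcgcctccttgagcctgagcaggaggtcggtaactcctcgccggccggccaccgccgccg

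The Foxf1 window holds 4 of the 6 listed CpGs of its locus, and the 3 other windows hold all of theirs. These windows carry 17, 26, 23 and 23 CpGs, in the order shown, so most CpGs of each window were not listed. Their ratios of observed to expected CpG were 0.535, 0.862, 0.759 and 0.765, and their GC contents 65.3%, 64%, 63.7% and 64%. Taken over all loci, the median ratio was 0.748 at intronic and 0.830 at intergenic loci, against 0.847 at loci of promoter islands and 0.793 at loci of exonic islands. By these values the intergenic windows were closer to promoter islands in CpG density than the intronic windows were, without a test. All 166 windows contained CCGG, the site that this method as a rule cuts. The letters GGGCGG, which match the GC box bound by Sp and Klf factors, were found on either strand in 55.1% of intronic and 67.0% of intergenic windows, in 62.0% and 44.6% of promoter and exonic island windows, and in 35.7% of all 32851 RefSeq promoters of the same length. The RefSeq promoters had a median GC content of 52.7%, against 67.7% at intronic and 68.3% at intergenic windows. The shares are therefore not matched for base composition. The E-box CACGTG was in 10.1% of intronic and 3.09% of intergenic windows. It was in 10.4% of exonic and 6.76% of promoter island windows and in 7.15% of the RefSeq promoters. The core of the CTCF motif was found in 0 of the orphan windows and in 0.0365% of the RefSeq promoters.

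Orphan island positions were listed mostly as higher in G5. The authors' tables placed 192 of the 254 positions (75.6%) among the higher and 62 among the lower ones, where 55.8% of all listed positions were higher and 44.2% lower. The share was 77.8% at intronic positions (77 of 99, 95% Wilson interval 68.6 to 84.8) and 74.2% at intergenic positions (115 of 155, 66.8 to 80.4). The intervals cover counting error over positions only, and positions of 1 locus are not independent. In promoter islands 64.0% and in exonic islands 82.1% of the listed positions were higher, so by positions orphan islands stood between these classes, without a test of the difference. Counted over loci, 53 of 69 intronic loci (76.8%) and 62 of 97 intergenic loci (63.9%) had a higher mean in G5. The intergenic share was therefore lower by loci than by positions. No share by loci is given for promoter and exonic islands. Of the 48 loci with at least 2 listed positions, 42 had a higher mean and 41 held a single direction. The tables list only positions that passed the authors' test, so these shares describe the lists and not all measured CpGs.

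**Figure D1:**
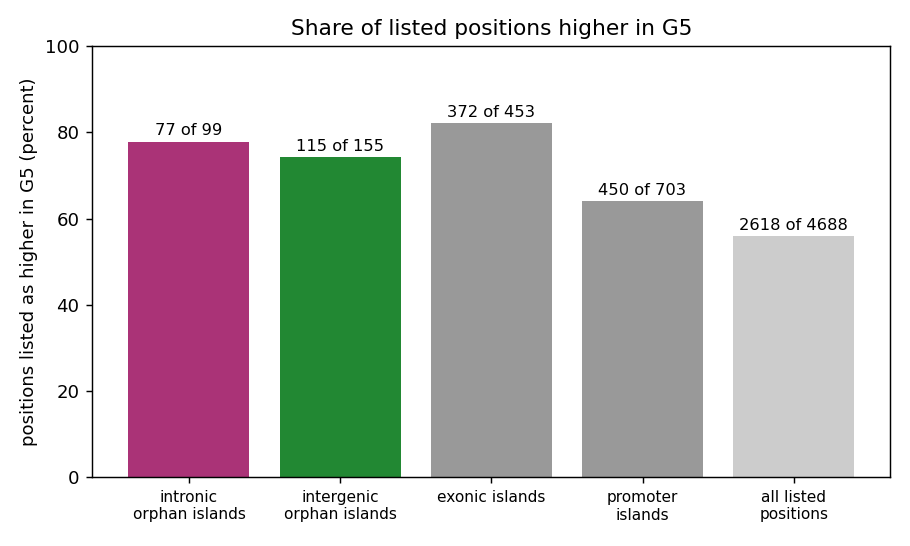
Percent of listed positions that were higher in G5, for intronic and intergenic orphan islands (coloured bars), exonic and promoter islands on autosomes, and all listed positions; numbers above the bars are counts. Intronic orphan islands reach 77.8% and intergenic ones 74.2%, between promoter islands at 64.0% and exonic islands at 82.1%.

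The G0 level of orphan islands was low for most positions. In G0 the mean level was under 20% at 137 positions, from 20% to 80% at 106 and over 80% at 11. At the intronic higher positions the pool medians were 19.05%, 17.5% and 18.8% in G0 and 37.3% and 33.9% in the G5 pools. At the intergenic higher positions they were 18.4%, 15.1% and 16.2% in G0 and 33.3% and 39.2% in the G5 pools. All G5 medians lay above all G0 medians in both classes, as the choice of listed positions fixes. The lower positions had similar G0 medians and G5 medians of a few percent. Their pool medians were 17.7%, 15.9% and 16.9% in G0 and 4.38% and 4.03% in G5 at intronic positions. At intergenic lower positions they were 20.8%, 16.4% and 17.6% in G0 and 5.15% and 3.83% in the G5 pools. Both G5 pools were at 0% at 5 of the 62 lower positions, and all G0 pools were at 0% at 2 of the 192 higher positions. Promoter island positions listed as higher had a lower G0 median of 6.69% ± 0.672 (SD, n = 3) and exonic ones a higher G0 median of 30.1% ± 0.620 (SD, n = 3), against 17.4% ± 1.16 (SD, n = 3) in all higher orphan positions.

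**Figure D2:**
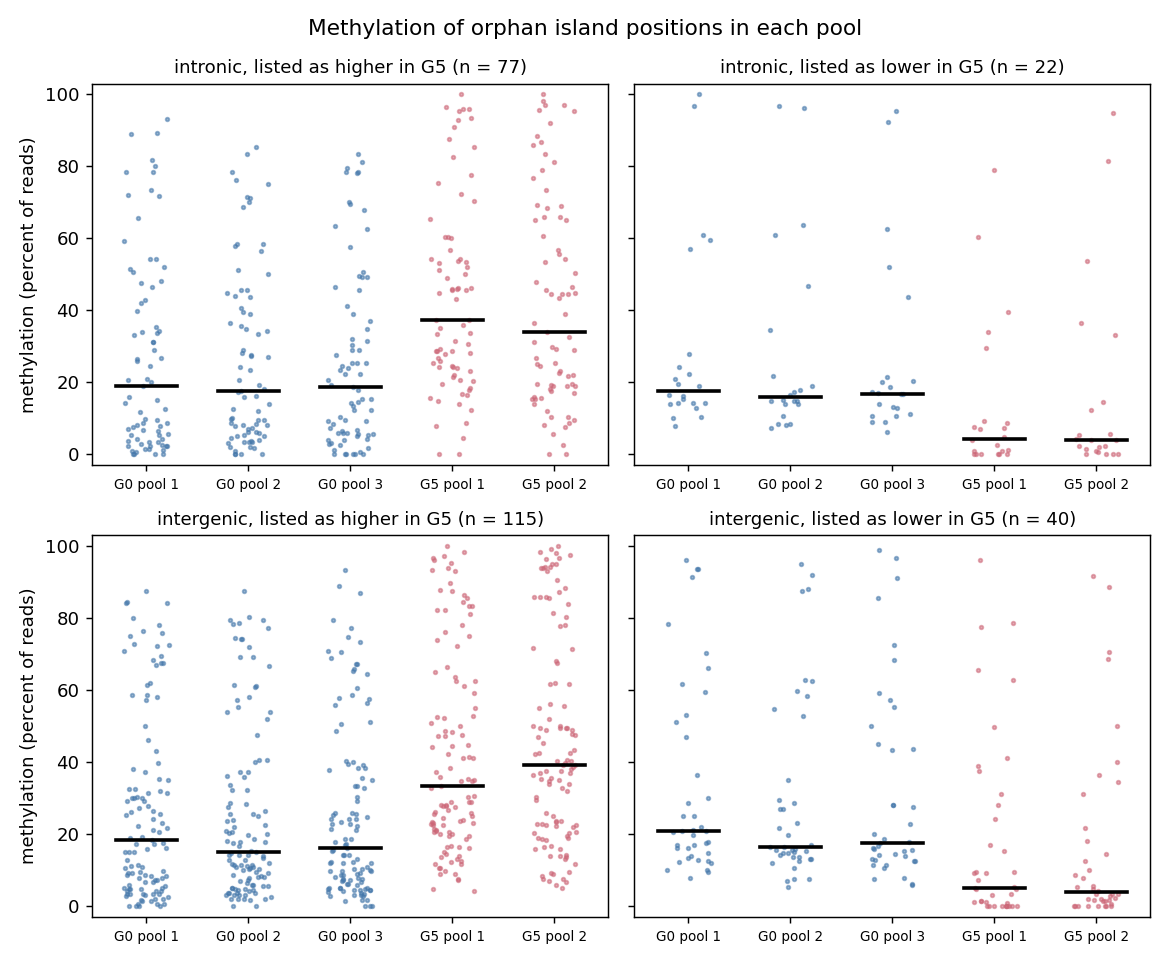
Percent methylation of every orphan island position in each of the 5 pools (blue G0, red G5; black lines are pool medians), split by intronic or intergenic placement and by listed direction. Medians at higher positions go from 15.1% to 19.05% in G0 pools to 33.3% to 39.2% in G5 pools, and medians at lower positions from 15.9% to 20.8% to 3.83% to 5.15%.

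The median absolute difference between group means was 14.3 points at intronic and 15.6 points at intergenic positions. At higher positions the mean shift was 16.3 points for intronic and 17.97 points for intergenic positions, and at lower positions it was -13.4 and -14.7 points. The gap between both placements, intronic minus intergenic, was 0.455, 1.10 and 0.0872 points in the G0 pools and 1.13 and -3.35 points in the G5 pools at higher positions. The G5 pools lay on opposite sides of the G0 values, so the gap did not separate the groups. At lower positions it was -4.32, -2.02 and -5.18 points in G0 and -4.99 and 0.0542 points in G5, where 1 of the G5 pools lay among the G0 values. The authors' difference was at least 30 points at 1 of 99 intronic and 5 of 155 intergenic positions. Such shifts were few in the whole list too, at 213 of all 4688 positions. Promoter islands had 24 among 703 and exonic islands 21 among 453.

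The percent values of the 5 pools were compared position by position with limma, and p-values were adjusted by Benjamini-Hochberg over all 4688 listed positions. Among orphan positions 82 of 254 passed an adjusted p of 0.05, 69 as higher and 13 as lower. This share, 32.3%, is near the 33.1% of all listed positions that passed (18.5% as higher and 14.6% as lower), so it is no result about orphan islands. By placement 24 intronic positions rose and 4 fell, and 45 intergenic positions rose and 9 fell. Among positions listed as lower, 13 of 62 (20.97%) passed, where 33.0% of all positions listed as lower did. Among those listed as higher, 69 of 192 (35.9%) passed, against 33.2%. The count of lower calls depended on the scale, with 13 intronic and 21 intergenic calls when percents were put on a logit scale. On that scale 1937 of all 4688 listed positions passed. Without any single G0 pool 0 orphan positions passed limma, while 113, 104 and 100 of them had an unadjusted p under 0.05 without pool 1, 2 and 3. In these fits 0, 9 and 0 of all 4688 listed positions passed, so the loss was not particular to orphan islands. The positions had been selected on these same samples, so the calls are no independent evidence, and a permutation of 3 against 2 samples cannot give a p below 0.1.

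Every G5 pool lay beyond every G0 pool in the listed direction at 223 of the 254 positions (87.8%), near the 85.6% of all listed positions. The shares were 71 of 77 and 20 of 22 at intronic higher and lower positions and 100 of 115 and 32 of 40 at intergenic ones, where 86.9% of all higher and 83.9% of all lower positions had it. The G5 pools differed from each other by a median of 8.49 points, and at 54 positions by more than the difference between the groups. G5 pool 2 was further from the G0 mean at 128 positions and G5 pool 1 at 119. Leaving out G5 pool 1 turned the sign of the difference at 6 positions, leaving out G5 pool 2 at 8, and leaving out any of the G0 pools at 0.

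**Figure D3:**
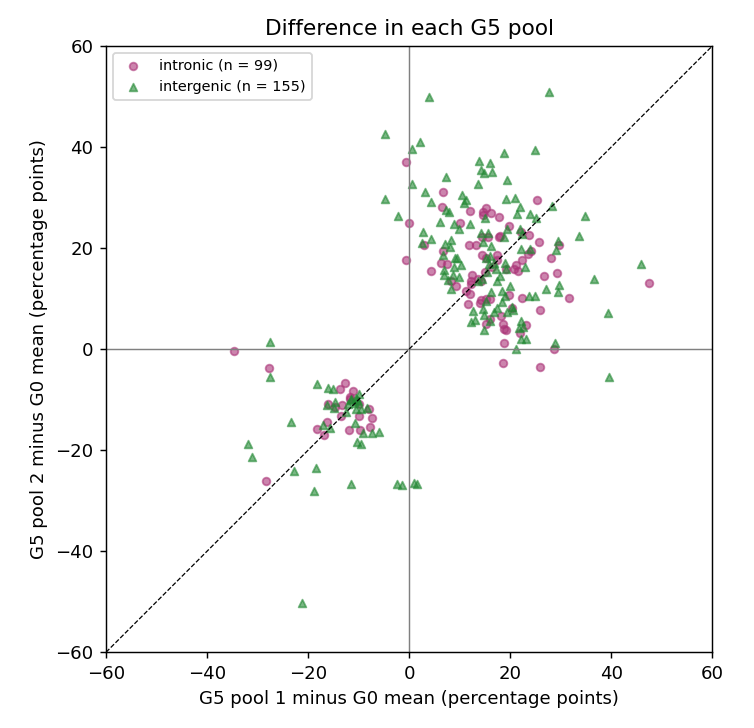
Difference from the G0 mean in G5 pool 1 (horizontal axis) and G5 pool 2 (vertical axis) in percentage points for each orphan island position (circles intronic, triangles intergenic); the dashed line marks equal differences. Most points lie in the quadrants where both pools moved the same way, and the pools differ by a median of 8.49 points.

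Among intergenic loci listed as higher, the one with the most positions lay 4981 to 5325 bases downstream of the start site of Foxf1, a forkhead transcription factor of mesenchyme and blood vessels. Its 7 positions at chromosome 8, 121089365 to 121089709 (mm10), averaged 23.3%, 23.1% and 22.04% in the G0 pools and 36.9% and 47.2% in the G5 pools. No value of 1 group lay among those of the other, and the difference of 19.3 points came from 22.8% ± 0.674 (SD, n = 3) for the controls and 42.1% ± 7.29 (SD, n = 2) for G5. Of the 7 positions 4 rose in limma's test, with a smallest adjusted p of 0.0454. Upstream of Plagl1, an imprinted gene of a zinc finger transcription factor, 6 positions at chromosome 10, 13061071 to 13061221, had 73.8%, 71.6% and 64.4% in the control pools and 93.0% and 93.2% in the G5 pools. All G5 values were above all G0 values, and all 6 positions rose. The difference was 23.2 points over the locus and 30.6 points (SE 4.58, limma adjusted p = 0.0412) at position 13061082, the largest of the 6. The locus lies 29567 to 29717 bases upstream of the start site used by the authors, but GENCODE places another Plagl1 start 568 bases away, inside an annotated Plagl1 gene body.

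At 3838 to 3875 bases upstream of Dcdc2c, which encodes a doublecortin domain protein, 6 positions on chromosome 12, 28552174 to 28552211, had 69.2%, 70.4% and 70.5% in the control pools and 86.8% and 93.5% in the G5 pools. The pools of both groups were apart at all 6, and 5 of them rose, with a smallest limma adjusted p of 0.0412. In GENCODE these positions are exonic and begin 74 bases from a Dcdc2c start. The 2 listed positions 7560 and 7578 bases upstream of Dleu2, a non-coding host gene of tumour-suppressing miRNAs, had a difference of 24.9 points. They averaged 51.0%, 47.3% and 52.4% in G0 and 77.3% and 73.0% in the G5 pools, without overlap, and both rose (smallest limma adjusted p of 0.0412).

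At other intergenic loci the G5 pools differed more from each other. The 6 positions on chromosome 14 assigned to Gm10377, over 100 kb from its start site, averaged 47.9%, 36.9% and 37.5% in G0 and 49.996% and 77.1% in the G5 pools. Only G5 pool 2 lay well above the controls, the groups were apart at 3 of the 6 positions, and 2 rose. The difference was 22.8 points, 9.22 without G5 pool 2 and 36.3 without G5 pool 1. This locus lies in Cdv3-ps, a processed pseudogene, which is a gene copy made from a spliced RNA. The 4 positions assigned to Gm21119 averaged 18.3%, 14.4% and 11.96% in the control pools and 31.4% and 50% in the G5 pools, and all 4 rose, by 25.8 points on average, or 16.5 points without G5 pool 2. The 32 bases centred on the CpG occur again in the genome at 3 of the 4, up to 5 times in all, and whether reads of these copies were mixed was not tested. At Gm10377 this holds for 1 of 6 positions.

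Intergenic loci listed as lower were small. The 3 positions 43177 to 43188 bases downstream of the start site of Ccr1, a chemokine receptor gene of myeloid cells, averaged 19.8%, 19.4% and 32.9% in G0 and 20.6% and 0% in the G5 pools. G5 pool 1 lay among the control pools, and 0 of the 3 positions passed limma (smallest adjusted p of 0.0813). The difference of -13.7 points was -3.45 points without G5 pool 2 and -24.0 without G5 pool 1. At 2 positions assigned to the non-coding gene 1700030C10Rik, 933331 and 933660 bases from its start site, the means were 47.4%, 39.1% and 36.2% in the control pools and 26.5% and 20.6% in the G5 pools. No value of 1 group lay among those of the other on average, and 1 of the 2 positions fell (limma adjusted p = 0.0426). Its closest GENCODE start, 130 bases away, is that of the processed pseudogene Gm49379.

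The intronic locus with the most listed positions was nearest to Nfix, a nuclear factor I transcription factor gene, inside whose annotated body it lies. Its 6 positions on 4 CpGs at chromosome 8, 84784420 to 84784452, averaged 33.9%, 30.6% and 25.1% in G0 and 49.5% and 48.7% in the G5 pools. The pools of both groups were apart at all 6 positions, with a difference of 19.2 points between 29.9% ± 4.45 (SD, n = 3) and 49.1% ± 0.577 (SD, n = 2). Of these 3 rose, with a smallest limma adjusted p of 0.0412. In Fgfr3, a receptor of fibroblast growth factors, 4 positions 1312 to 1603 bases downstream of the start site had 47.3%, 47.2% and 47.8% in the control pools and 64.0% and 60.4% in the G5 pools. Single levels ranged widely inside this locus, from 4.24% to 85.4% in G0, yet all 4 positions had the groups apart and 2 of them rose. In GENCODE all 4 lie in an exon, 3 of Fgfr3 and 1 of G630022F23Rik.

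**Figure D4:**
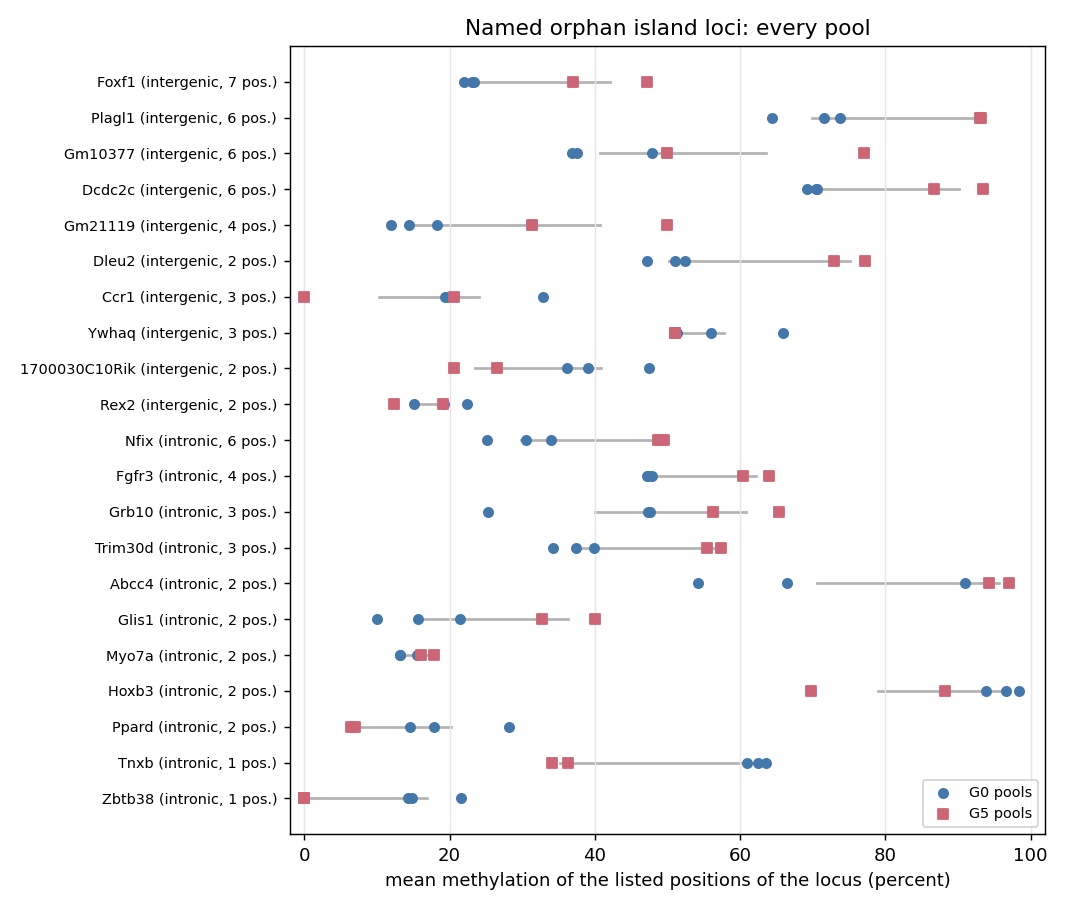
Mean percent methylation of the listed positions of each named locus in every pool (blue circles G0, red squares G5), with a grey line from the G0 mean to the G5 mean. Plagl1, Dcdc2c, Nfix and Fgfr3 show separate groups, while at Ccr1 a G5 pool at 20.6% lies among the G0 pools and the other is at 0%.

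Grb10, an imprinted gene whose adaptor protein dampens insulin and growth factor signalling, had 3 intronic positions 1716 to 1726 bases downstream of the start site, which GENCODE places in a Grb10 exon 68 to 78 bases from another Grb10 start. They averaged 47.4%, 47.5% and 25.3% in G0 and 56.3% and 65.3% in the G5 pools. The groups were apart, but G0 pool 3 stood well below the other control pools, and 0 of the 3 passed limma (smallest adjusted p of 0.0591). The difference of 20.7 points was 13.3 points without that pool. In Trim30d, of the TRIM family of ubiquitin ligase-like proteins, 3 positions had 34.3%, 37.4% and 39.9% in the control pools and 55.4% and 57.4% in the G5 pools, without overlap, and 2 of them rose (smallest limma adjusted p of 0.0454). GENCODE places these 3 in the processed pseudogene Gm16464 inside the intron, and 1 of them has an identical copy elsewhere in the genome.

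In Abcc4, an efflux transporter gene, 2 positions averaged 91.0%, 54.2% and 66.5% in G0 and 94.3% and 97.0% in the G5 pools. Both G5 pools lay above all G0 pools, of which pool 1 was closest, and 0 of the 2 passed (smallest limma adjusted p of 0.0716), with a difference of 25.1 points. In Glis1, a Krüppel-like zinc finger gene, 2 positions 1231 and 1251 bases downstream of the start site rose, and GENCODE counts both as exonic. Their means were 15.6%, 10.003% and 21.4% in G0 and 40.04% and 32.7% in the G5 pools, a difference of 20.7 points (smallest limma adjusted p of 0.0456).

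Among intronic loci listed as lower, the 2 positions nearest to Hoxb3, a homeobox gene of the trunk axis and of blood progenitors, were almost fully methylated in G0. They averaged 98.4%, 96.6% and 93.9% in G0 and 69.8% and 88.2% in the G5 pools. The pools of both groups were apart at 1 of the 2, which fell by 17.04 points (SE 4.13, limma adjusted p = 0.0444). At the other position G5 pool 2 stood at 94.7%, among the control pools. The locus difference was -8.10 points without G5 pool 1 and -26.5 points without G5 pool 2. GENCODE has a start of the antisense gene Gm11536 121 bases from it.

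A single position in Tnxb, which encodes the matrix protein tenascin X, fell from 61.0%, 63.6% and 62.5% in G0 to 34.0% and 36.4% in the G5 pools. The pools of each group were close together, and the difference was -27.2 points (SE 3.99, limma adjusted p = 0.0412). A single position in Zbtb38, a gene for a zinc finger protein that binds methylated DNA, had 14.3%, 14.8% and 21.6% in the control pools and 0% in both G5 pools. It fell by 16.9 points (limma adjusted p = 0.0456), and GENCODE places it in a Zbtb38 exon 119 bases from a start. Near Ppard, a nuclear receptor of fatty acids, 2 positions had 17.9%, 28.2% and 14.6% in G0 and 6.97% and 6.41% in the G5 pools. No value of 1 group lay among those of the other, 0 of the 2 passed limma (smallest adjusted p of 0.0679), and GENCODE places them in Def6.

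Neighbouring positions of opposite direction occurred at 7 of the 48 loci with more than 1 position, 4 intronic and 3 intergenic. At Ywhaq, 481850 bases or more from the start site of this gene, 1 position was listed as higher and 2 as lower, with the groups apart at all 3. Of these the lower position at 21899454 fell (by 23.5 points, limma adjusted p = 0.0426). At Rex2 the position at 146932715 was 14.7 points higher (limma adjusted p = 0.0502) and the one at 146932965 fell by 20.9 points (limma adjusted p = 0.0470). In Myo7a, a myosin gene of hair cells, position 98111333 rose by 16.6 points (limma adjusted p = 0.0456), and position 98111511 was 10.5 points lower (limma adjusted p = 0.0819). The locus means, which average opposite shifts, were -6.66, -3.12 and 3.03 points. At Ywhaq the mean was -2.59 points without G0 pool 1. At Rex2 it was -1.36 without G0 pool 1, -5.03 without G0 pool 3, -6.49 without G5 pool 1 and 0.248 without G5 pool 2. At Ywhaq 1 of the 3 positions has identical copies of its 32 bases.

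Positions outside orphan islands but within 2 kb of them mostly had the same direction. Of the 166 loci, 17 had such listed neighbours, 32 in all, of which 30 shared the direction of the locus. At intronic loci these were 21 of 22 and at intergenic loci 9 of 10. CpG island shores held 18 of the 32, exons 16 and promoters 2, where a neighbour may count in more than 1 class. The same share was not counted around positions of other classes, and close positions are not independent. It is therefore no result about orphan islands.

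Many orphan island positions lie within 1 kb of an annotated start in another annotation, and part of these starts are those of pseudogenes. The authors took start sites from RefSeq, and the members lay 1010 to 1111323 bases from the nearest one, with a median of 5889 bases for intronic and 26980 bases for intergenic positions. In GENCODE M21, 145 of the 254 positions (57.1%) lay within 1 kb of an annotated start. This was so for 50 intronic (50.5%) and 95 intergenic positions (61.3%), against 98.6% of promoter island and 29.8% of exonic island positions and 41.4% of all listed positions. Among the 95 intergenic positions the start belonged to a protein-coding gene at 48 and to a processed pseudogene at 32. Of the 50 intronic ones, 32 were near a protein-coding start, 8 near an antisense start and 8 near a processed pseudogene start. The kind of start was not counted for the other classes, so the shares cannot be compared without pseudogene starts.

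**Figure D5:**
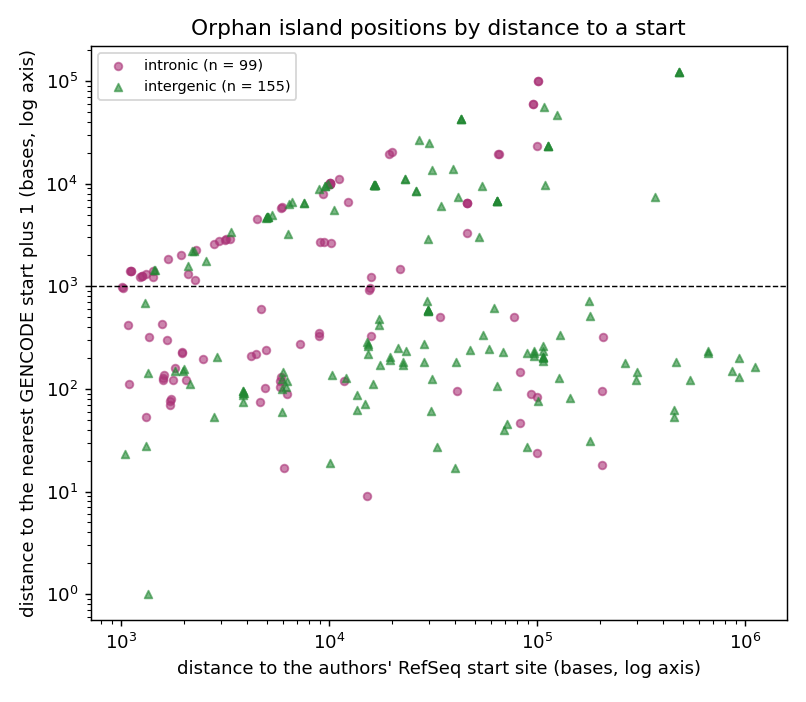
Distance of each orphan island position to the nearest start site in RefSeq, as the authors used it, and in GENCODE M21 (horizontal and vertical log axes, in bases, with 1 added to the GENCODE distance; circles intronic, triangles intergenic; the dashed line marks 1 kb). All positions lie beyond 1 kb in RefSeq, and 145 of the 254 lie within 1 kb of a GENCODE start.

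Positions listed as higher were in the majority both near and away from GENCODE starts. Within 1 kb of a start, 108 positions were listed as higher and 37 as lower (74.5% higher), and further away 84 and 25 (77.1%). At intergenic positions the shares were 75.8% near and 71.7% away, and at intronic positions 72% near and 83.7% away, without a test. Median G0 levels were 17.2% near and 16.96% away. A processed pseudogene body held 20 positions in 10 loci, of which 17 were listed as higher, and their median level was 34.7% in G0 and 55.7% in the G5 pools. All listed positions had 45 in such bodies, promoter islands 1 and exonic islands 0. Of the 20 positions 7 passed limma (35%, near the 33.1% of all listed positions) and 5 had an identical copy of their 32 bases elsewhere. Such copies were found for 16 of the 254 positions, 3 intronic and 13 intergenic (8.39%), against 1.92% of all listed positions. Their part in the levels was not tested.

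By nearest gene, the list of developmental transcription factor families held the most positions. It is built on name prefixes, so it also takes in Six3os1, a non-coding antisense transcript with 1 lower position. The list held 28 of the 254 positions (11.02%) at 15 genes, that transcript included, where 5.46% of all listed positions belonged to the list. Of these 23 (82.1%) were listed as higher and 5 as lower, where 75.6% of all orphan positions and 67.6% of the list's positions in the whole tables were higher. In limma's test 9 rose and 1 fell, and these 10 of 28 (35.7%) are near the 33.1% of all listed positions. The median difference was 13.4 points, and 22 of the positions were intergenic. Foxf1 held 7 of them, and the others were spread over families such as Hox, Pax, Sox and Tbx. The list of imprinted genes held 9 positions (3.54%, against 0.448% of all listed positions), 6 of Plagl1 and 3 of Grb10, listed as higher. The 6 of Plagl1 rose, 66.7% of the 9 where 33.1% of all listed positions passed, and they form 1 locus. Dio3, an imprinted gene that the list leaves out, had 1 position listed as lower, at 93.7%, 95.1% and 96.8% in G0 and 96.2% and 68.8% in the G5 pools (limma adjusted p = 0.178). The list of Wnt, BMP, Fgf, Notch and Hedgehog signalling genes held 4 positions, those of Fgfr3, of which 2 rose (50%, against 33.1%). Ligands and receptors of other families, such as Ccr1, Csf2ra and the ephrin receptors Epha2 and Epha7, are outside that list. MicroRNA genes held 4 positions, 3 higher and 1 lower, and 1 of them rose (25%, against 33.1%). The lists of haematopoietic regulators, of protocadherins, and of Polycomb and DNA methylation genes held 0 orphan positions, with 16, 13 and 16 among all listed positions. The lists are not complete, and they were described by counts and not tested.

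The last 5 Mb of chromosomes, next to the telomeres, held 12 of the 254 positions (4.72%), on 8 chromosomes, against 329 of all 4688 listed positions (7.02%). Of these 12, 9 were listed as higher and 3 as lower, the groups were apart at 9, and 1 passed limma (8.33%, where 33.1% of all listed positions passed).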

How the data were processed

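The study compared common myeloid progenitors of 3 G0 pools and 2 G5 pools by reduced representation bisulfite sequencing. The submitters' processing notes and the series' design text name Bismark 0.7.11, Bowtie and mm10 for the alignment. Per the design text, G0 and G5 were compared with methylKit and Fisher's exact test. The sources used here give no read minimum. The deposited tables give the percent of methylated reads per pool and position, the authors' p-value and q-value, and their annotation flags. They hold only positions with a q-value under 0.01 and a difference of at least 10 points. Coverage is not in the tables used, so the planned quasi-binomial test of read counts and the read minimum were not run, and intervals for single levels cannot be given.

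Percent values of all 4688 positions were fitted with limma 3.58.1 (R 4.3.3), G5 against G0, with Benjamini-Hochberg adjustment over all of them, after a test on simulated data. Labels do not say that pools are independent litters, so p-values measure the spread between these pools. Members were joined within 1 kb into loci with Python 3.11.15. Per placement and direction the text names 4 loci by number of positions and then 2 by size of difference among those with at least 2 positions, and up to 3 loci of both directions. Windows of 300 bases and copies of 32 bases came from the mm10 genome (GRCm38), promoters from RefSeq and further starts from GENCODE M21. Positions are printed as the tables give them, and sequence windows are counted from 1. Members and gene lists were chosen with earlier results of these data known. Alternatives covered scale, prior, thresholds, level range, unit, pairing and each pool left out.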

Additional observations from a re-analysis of the deposited data

How the results depend on the processing

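Positions listed as higher stayed in the majority in both placements under the alternatives run, while the limma counts of lower positions did not hold their size. The authors' listing fixed each direction on these same pools, so most of these alternatives could hardly have overturned the majority. Against 4 intronic and 9 intergenic lower calls, the logit scale gave 13 and 21, a trended prior 11 and 18, an authors' q-value under 0.001 gave 1 and 3, and a mean level of 20% to 80% gave 1 and 5. In both directions 105, 126, 59 of 114 and 58 of 106 orphan positions passed in these settings. Among all listed positions 1937, 2315, 1145 of 1970 and 1257 of 2253 did. With 1 pool left out, intronic higher calls ranged from 0 to 29, intronic lower from 0 to 5, intergenic higher from 0 to 55 and intergenic lower from 0 to 8. The 0 came with any G0 pool left out, where 0, 9 and 0 of all 4688 listed positions passed without pool 1, 2 and 3. Without G5 pool 1, 87 orphan positions passed, 46 of them shared with the 82, and without G5 pool 2, 80 passed with 42 shared. With the replicate block limma called 0 in all 4 classes (71 orphan positions at an unadjusted p under 0.05) and 0 of all 4688 listed positions. Only 2 numbers are shared, and their deviations correlated at 0.0124 and 0.0476. With 2 G5 pools these deviations mirror each other, so the values cannot show whether equal numbers belong together. The labels do not say whether they do.

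The intergenic share of higher positions was 86.8% at a q-value under 0.001 and 63.9% by loci, and at differences of at least 20 points the shares were 95.5% (intronic) and 85.7% (intergenic). Median absolute differences were 17.5 and 18.1 points at a q-value under 0.001 (intronic, intergenic), 12.9 and 13.7 points by loci and 14.9 points from the authors' column (intronic); leaving out a pool gave 14.3 to 15.3 and 15.2 to 16.9 points. The Rex2 locus, at -3.12 points, ranged from -6.49 to 0.248 with 1 pool left out and changed sign without G5 pool 2 and, at 14.7 points, when joined within 200 bases, which leaves out its lower position. Alternatives chosen after seeing the data left out positions with identical copies (calls 22, 4, 42 and 9, shares 78.1% and 73.9%) or kept only those over 1 kb from GENCODE starts (shares 83.7% and 71.7%). The read minimum was not run, as no coverage is given, and the cause of these changes was not tested. Depth behind each percent is unknown.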

Other observations

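The following loci lie outside the naming rule and were chosen after their values were seen. Upstream of Six2, a homeobox gene of kidney progenitors, 3 intergenic positions averaged 17.2%, 15.02% and 21.96% in G0 and 37.6% and 38.7% in the G5 pools, and 2 of them rose in limma's test. Upstream of Tbx1, a T-box gene of the pharyngeal arches, 2 intergenic positions rose, with 35.3%, 37.9% and 35.6% in G0 and 69.4% and 49.5% in the G5 pools. The position with the lowest difference, near the lectin gene Cd209c, had 53.03%, 54.8% and 72.6% in the control pools and 38.9% and 10% in the G5 pools (limma adjusted p = 0.0476).

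Intergenic orphan positions were uneven along chromosomes, in stretches chosen after seeing the data. From 15 to 25 Mb of chromosome 12, 19 intergenic positions (12.3% of all intergenic ones) lay in 14 loci, 13 higher and 6 lower, and 13 of them were within 1 kb of a processed pseudogene start. Limma called 10 of these 19, where 33.1% of all listed positions passed, and 4 of the 19 had identical copies. This stretch held 48 of all 4688 listed positions. From 0 to 50 Mb of chromosome 14, 15 positions in 6 loci, 14 of them intergenic, had pool medians of 15%, 11.9% and 12.8% in G0 and 23.2% and 42.4% in the G5 pools. Of these 15, 14 were listed as higher and the intronic position of Ube2e1 as lower, and 5 had identical copies. Limma called 2 of the 15, against 33.1% of all listed positions, and the stretch held 52 of all listed positions. G5 pool 2 stood well above G5 pool 1 there. At a Gm3264 locus of 3 positions the pools had 6.98%, 5.49% and 12.1% in G0 and 13.4% and 34.2% in the G5 pools.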
